A study of Homo sapiens with 16 samples.

Results

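The interleukin-1 family in these cultures was taken as 10 genes of the 78894 in the count table: the ligands IL1A, IL1B, IL18, IL33 and IL36G, the receptor antagonist IL1RN, the receptors IL1R1 and IL1RL1, the decoy receptor IL1R2, and the shared accessory protein IL1RAP. The genes were chosen from measured values of these same 16 libraries, in which all 4 conditions were compared, so their levels and differences are given as a description, with no p-value. Where the fit over all genes called one of them, that is stated for completeness and supports nothing. Of the 10, 8 passed the low-count filter that left 16790 genes. IL36G, with 24 counts over the 16 libraries, and IL1R2, with 34, did not pass.

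MCF10DCIS.com, the line used, descends from the human breast line MCF10A, is premalignant and forms lesions resembling ductal carcinoma in situ. All 4 groups descend from 1 PCSK5-/- clone made with Cas9, which was transduced with PCSK5 carrying a V5 tag and controlled by tetracycline. The alleles were wildtype (WT), M452I and T288P, each represented by 1 polyclonal, hygromycin-selected line, so an allele and its line cannot be told apart. Every group was grown in 3 dimensions on matrigel with 5 ng/ml EGF, received 1 µg/ml doxycycline from day 4 and was harvested on day 8. In the fourth group, T288P+GDF11, the T288P line received recombinant mature GDF11 at 250 ng/ml throughout. Each group had 4 wells, sequenced as poly(A) RNA. The comparisons ask how either mutant allele differs from WT and what added GDF11 changes in the T288P line. The wells of a group share a line, so the spread between them, and every p-value, may reflect technical variation only.

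Interleukin-1 family cytokines are alarm signals of epithelia and innate immune cells. IL-1 alpha and IL-1 beta bind the receptor encoded by IL1R1, which recruits IL1RAP and signals through MYD88 and IRAK kinases to NF-kappaB, while the product of IL1RN occupies the same receptor without signalling. IL-33 acts through the receptor encoded by IL1RL1, also with IL1RAP. IL-1 beta and IL-18 are made as precursors that caspase-1 cleaves, whereas IL-33 is stored in the nucleus and released from damaged cells.

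Library totals ran from 28.45 to 50.76 M counts (median 34.7 M). Levels are counts per M counts scaled with TMM factors (CPM). A count of 0 allows up to 0.065 to 0.106 CPM in a library (3 counts, counting error only). PCSK5 was at 45.4 ± 12.0 CPM (SD, n = 4) in WT, and M452I had 39.5 ± 19.3, T288P 37.7 ± 13.5 and T288P+GDF11 40.8 ± 10.7. These gene-level counts do not distinguish the introduced allele from a transcript of the edited gene. GDF11 was at 5.75 ± 1.07 CPM in T288P and 7.05 ± 0.738 in T288P+GDF11. On the first principal component, the well M452I replicate 4 scored 37.5 where the other M452I wells scored -44.7 to -32.9, and T288P replicate 1 scored -43 where the other T288P wells scored 2.1 to 8.8. Results that rest on these wells are given with and without them. All 10 epithelial markers examined passed the filter. They join genes of basal cells with KRT8, KRT18, CDH1 and EPCAM, which are not particular to basal cells. Their summed level was 9155 to 12191 CPM in the wells without GDF11 and 8000 to 8917 CPM with it. The 4 that fell with GDF11 against T288P were the basal keratin genes KRT5 and KRT17, and KRT18 and CDH1. ITGA6, encoding an integrin chain of basal cells, rose (log2 fold change 0.61, edgeR adjusted p = 0.0262). The basal genes KRT14 and TP63 were not called. Of 9 leukocyte markers, 3 passed the filter, and their summed level over all 9 ran from 0.358 to 0.961 CPM for WT, 0.566 to 1.61 for M452I, 0.898 to 1.39 for T288P and 1.33 to 2.62 with GDF11. Of 7 stromal and endothelial markers, 3 passed, and their sum ran from 4.88 to 6.65 CPM without GDF11 and from 7.19 to 9.88 CPM with it. PECAM1, an adhesion receptor of endothelial cells and platelets, was called higher with GDF11 than in T288P and than in WT. DCN, of the same list, was called higher with GDF11 only against WT (log2 fold change 3.68, SE 1.19). It was at 0.646 ± 0.473 CPM with GDF11 and 0.0455 ± 0.0909 in WT. The part of these markers in the results was not tested.

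Levels of different genes were compared per kb of exon. In WT, IL18 (269 ± 19.3 CPM per kb) and IL1A (267 ± 31.1) stood highest, and their wells overlapped. IL1B followed at 23.3 ± 2.24 CPM per kb, then IL1RAP at 14.1 ± 1.66, IL1RN at 11.0 ± 1.80 and IL33 at 7.58 ± 0.765. In that order of CPM per kb, only IL1RAP and IL1RN overlapped with each other among these. The receptor IL1R1 lay far lower at 0.617 ± 0.0495 CPM per kb, and IL1RL1, IL36G and IL1R2 had means of at most 0.0511. The transcripts of the ligands IL-1 alpha and IL-18 were thus far more abundant per length than that of the receptor IL1R1, and the accessory protein IL1RAP lay between. With T288P, IL33 moved from the sixth to the fourth place in CPM per kb (13.1 ± 2.67), where its wells overlapped with those of IL1RAP, and with GDF11 added it returned to the sixth place at 3.90 ± 0.261.

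Of the 10 genes, 7 sit in a ligand or a receptor cluster on chromosome 2 (GENCODE 29 coordinates, GRCh38). The ligand cluster of 9 genes opens with IL1A (ENSG00000115008; chr2:112773915-112784590, minus strand) and IL1B (ENSG00000125538; chr2:112829751-112836903, minus strand) and closes with IL1RN (ENSG00000136689; chr2:113107214-113134016, plus strand). These end genes held means of 282, 34.2 and 9.69 CPM per kb over the 16 libraries. The 6 genes between them, IL37, IL36G, IL36A, IL36B, IL36RN and IL1F10, had means of at most 0.154 CPM per kb, and IL36A had no count. IL36G (ENSG00000136688; chr2:112973203-112985665, plus strand), the gamma form of the IL-36 cytokines of squamous epithelia, is one of these inner genes and lay near the limit of detection. The receptor cluster of 6 genes holds IL1R2 (ENSG00000115590; chr2:101991844-102028544), IL1R1 (ENSG00000115594; chr2:102064544-102179874) and IL1RL1 (ENSG00000115602; chr2:102311502-102352037), all on the plus strand. IL1R1 was the highest of them at 0.684 CPM per kb, followed by IL18R1 at 0.111 and IL1RL1 at 0.0654. IL1RL1 shares 95 exon bases with IL18R1 on the same strand, so some of their reads could be assigned to either gene. IL18 (ENSG00000150782; chr11:112143251-112164117, minus strand), IL33 (ENSG00000137033; chr9:6215786-6257983, plus strand) and IL1RAP (ENSG00000196083; chr3:190514051-190659750, plus strand) lie elsewhere.

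**Figure D1:**
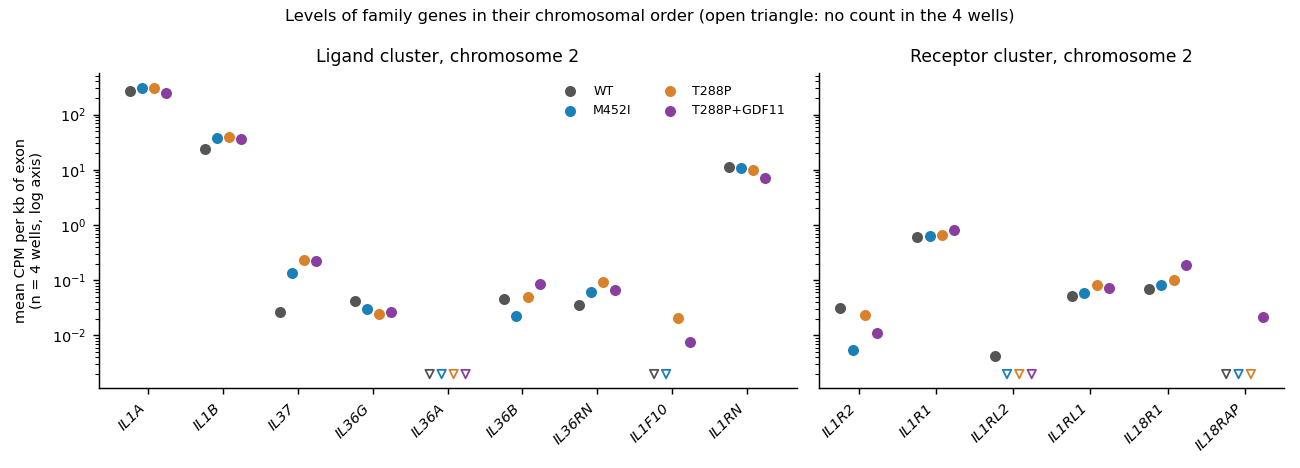
Mean CPM per kb of exon (log axis, n = 4 wells for each point) of the genes of the ligand cluster and of the receptor cluster on chromosome 2, in chromosomal order and coloured by condition; an open triangle marks no count in the 4 wells. IL1A, IL1B and IL1RN, at the ends of the ligand cluster, stood above 7 CPM per kb in every condition, and the 6 genes between them stayed below 0.3.

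Calls were made with edgeR's quasi-likelihood test where p, adjusted by Benjamini-Hochberg over all 16790 genes, was under 0.05. Of the 8 interleukin-1 family genes that passed the filter, M452I against WT called 1, IL1B, where 0.0238% of all genes were called. T288P against WT called 1, again IL1B, where 0.0417% of all genes were called. GDF11 against T288P called 2, IL1A and IL33, both lower, where 12.9% of all genes were called, and T288P+GDF11 against WT called 3, IL1B higher and IL1RN and IL33 lower, where 28.9% were called. M452I against T288P called 0 of the 8, where 0.00596% of all genes were called, and DESeq2 also called 0 of the 8. At an unadjusted edgeR p under 0.05 was 1 of the 8, beside 366 of all 16790 genes. The genes were chosen with these comparisons in view, so nothing is read from these counts. The median log2 fold change of the 8 was 0.19, 0.18, -0.20, -0.10 and -0.04 in the order given, beside 0.03, 0.02, -0.01, 0.02 and 0.01 over all genes tested. The 4 wells of 1 group did not overlap with the 4 of another in 4.09% of all genes for M452I against WT, 5.04% for T288P against WT, 22% for GDF11 against T288P and 35.1% for T288P+GDF11 against WT. That share was 18.8% for T288P+GDF11 against M452I and 1.2% for T288P against M452I.

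**Figure D2:**
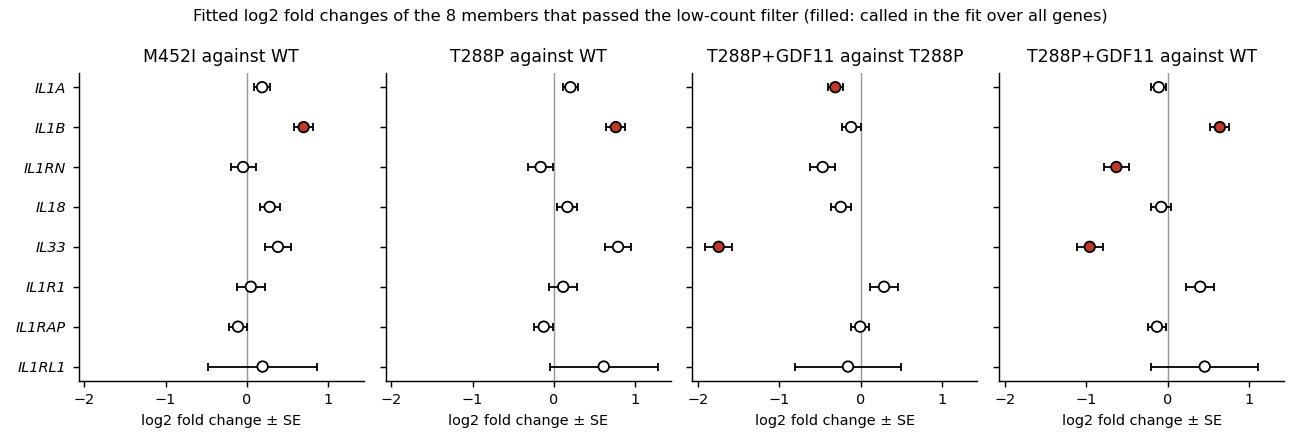
Fitted log2 fold change (horizontal axis, whisker: SE) of the 8 genes that passed the filter, in 4 comparisons; filled points were called in the fit over all genes. IL1B lies at 0.70, 0.76 and 0.64 against WT and at -0.12 for GDF11 against T288P, and IL33 lies at -1.75 for GDF11 against T288P.

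IL1B, the secreted inflammatory cytokine that needs cleavage to become active, was higher with either mutant allele and stayed high with GDF11. In the WT wells it was at 69.9, 65.0, 81.5 and 71.8 CPM. In M452I it was at 102, 104, 115 and 146 CPM. In T288P it was at 101, 131, 118 and 138 CPM, and in T288P+GDF11 at 113, 120, 112 and 104 CPM. All 12 wells of the other 3 groups thus lay above the highest WT well, and those 3 groups overlapped with each other. The overlap of M452I with T288P came from M452I replicate 4 and T288P replicate 1. The log2 fold change against WT was 0.70 ± 0.12 (SE) for M452I, 0.76 ± 0.12 for T288P and 0.64 ± 0.12 for T288P+GDF11, that is 1.62-fold, 1.69-fold and 1.56-fold. These 3 values share the WT wells. GDF11 against T288P gave -0.12 ± 0.12, and M452I against T288P gave -0.06 ± 0.12, both about 1 standard error from 0 or less with all wells. In whole cultures, fewer cells of a type and less RNA per cell cannot be told apart, which holds for every level given here.

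M452I replicate 4 had the highest IL1B level of its group (146 against 102 to 115 CPM) and T288P replicate 1 the lowest of its own (101 against 118 to 138 CPM). Without both, the M452I wells (102 to 115 CPM) lay below the T288P wells (118 to 138 CPM). M452I against T288P then gave a log2 fold change of -0.27, called, beside 2420 of all genes called. This fit was added after seeing the data. It leaves out the highest M452I and the lowest T288P well, which moves the groups apart, so the separation is no test. Without M452I replicate 4 the log2 fold change of IL1B against WT was 0.57, and without T288P replicate 1 it was 0.85. The calls of both alleles against WT depended on single wells and on the processing. For M452I it was kept without WT replicate 3 or without M452I replicate 4 and was lost when any 1 of the other 6 wells was left out, and also with RLE factors, the stricter filter, the replicate block or only the 2 groups compared, so that 5 of 15 alternatives kept it. For T288P it was kept without WT replicate 3 or without T288P replicate 1 and lost without any 1 of the other 6 and with the block, so that 8 of 15 kept it. For T288P+GDF11 against WT the log2 fold change ranged from 0.62 to 0.73 over the alternatives.

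The RefSeq window around the start of IL1B (GRCh38.p14, chr2:112836730-112837029, minus strand, 250 bases before to 50 after the start) is shown because IL1B differed from WT in every other group. Such windows were searched on both strands for the AP-1 letters TGANTCA, the SMAD letters CAGAC, the TATA letters TATAAA and the kappaB consensus. Capitals mark a match, and a match on the opposite strand reads as its reverse complement.
IL1B: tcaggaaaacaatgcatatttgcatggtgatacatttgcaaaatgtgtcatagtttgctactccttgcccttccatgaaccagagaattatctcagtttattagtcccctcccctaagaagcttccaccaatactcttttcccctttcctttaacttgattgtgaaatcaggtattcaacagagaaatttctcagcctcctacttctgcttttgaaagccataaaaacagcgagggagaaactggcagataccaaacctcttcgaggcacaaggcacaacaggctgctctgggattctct
No match to any of the 4 lies in this window, which says nothing of the factors themselves or of sites outside it. Of all 35116 windows in the RefSeq table, 7.71% held the AP-1 letters, 45.3% the SMAD letters, 11.5% the TATA letters and 11.3% the kappaB consensus. A window was found for 9 of the 10 genes, 18 windows in all.

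IL33, the nuclear alarmin, had the largest fold of the 8 genes with GDF11. It was at 25.1, 21.5, 27.6 and 24.4 CPM in WT and at 26.9, 27.0, 30.1 and 44.2 CPM in M452I. In T288P it was at 30.5, 51.2, 43.3 and 45.2 CPM. In T288P+GDF11 it was at 11.7, 13.8, 12.5 and 12.7 CPM. Every T288P well lay above every WT well, and the 4 wells with GDF11 lay below all 12 others. The log2 fold change of GDF11 against T288P was -1.75 ± 0.16 (SE), or 3.36-fold lower, and that of T288P+GDF11 against WT was -0.96 ± 0.16, or 1.94-fold lower. The first ranged from -1.88 to -1.63 over the alternatives. The level with GDF11 was therefore below that of WT, not only below that of the untreated T288P line.

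Against WT, IL33 gave a log2 fold change of 0.79 ± 0.16 (SE) in T288P and 0.38 ± 0.16 in M452I, neither called in the edgeR fit over all genes. The T288P value was called in 3 of 15 alternatives, among them DESeq2 with all wells. The wells M452I replicate 4 and T288P replicate 1 moved the M452I and T288P values in opposite directions. M452I replicate 4 was at 44.2 CPM where the other 3 M452I wells averaged 28 ± 1.82 (SD), and without it the M452I value was 0.19. T288P replicate 1 was at 30.5 CPM where the other 3 averaged 46.6 ± 4.12, and without it the T288P value was 0.93 and called. Each of the 2 wells thus had an IL33 level nearer to that of the other mutant line. M452I against T288P gave -0.41 ± 0.16 with all wells, not called, and -0.73 without both, called, beside 2420 of all genes called. The fit without both wells was added after seeing the data, so that call is no test.

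A RefSeq window of IL33 (GRCh38.p14, chr9:6215557-6215856, plus strand) is shown because IL33 fell with GDF11, whose signal as a TGF-beta superfamily ligand runs through SMAD proteins.
IL33: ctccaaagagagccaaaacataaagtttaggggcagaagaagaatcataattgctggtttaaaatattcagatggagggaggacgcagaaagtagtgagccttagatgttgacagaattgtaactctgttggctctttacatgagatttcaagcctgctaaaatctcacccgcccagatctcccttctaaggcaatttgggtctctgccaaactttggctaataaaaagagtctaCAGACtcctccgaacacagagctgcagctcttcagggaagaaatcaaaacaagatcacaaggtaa
It holds 1 match to the SMAD letters, with its first base 15 bases before the start, and none to the other 3. The other IL33 window (chr9:6214899-6215198) holds none of the 4. Since 45.3% of all windows hold the SMAD letters, such a match is common.

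**Figure D3:**
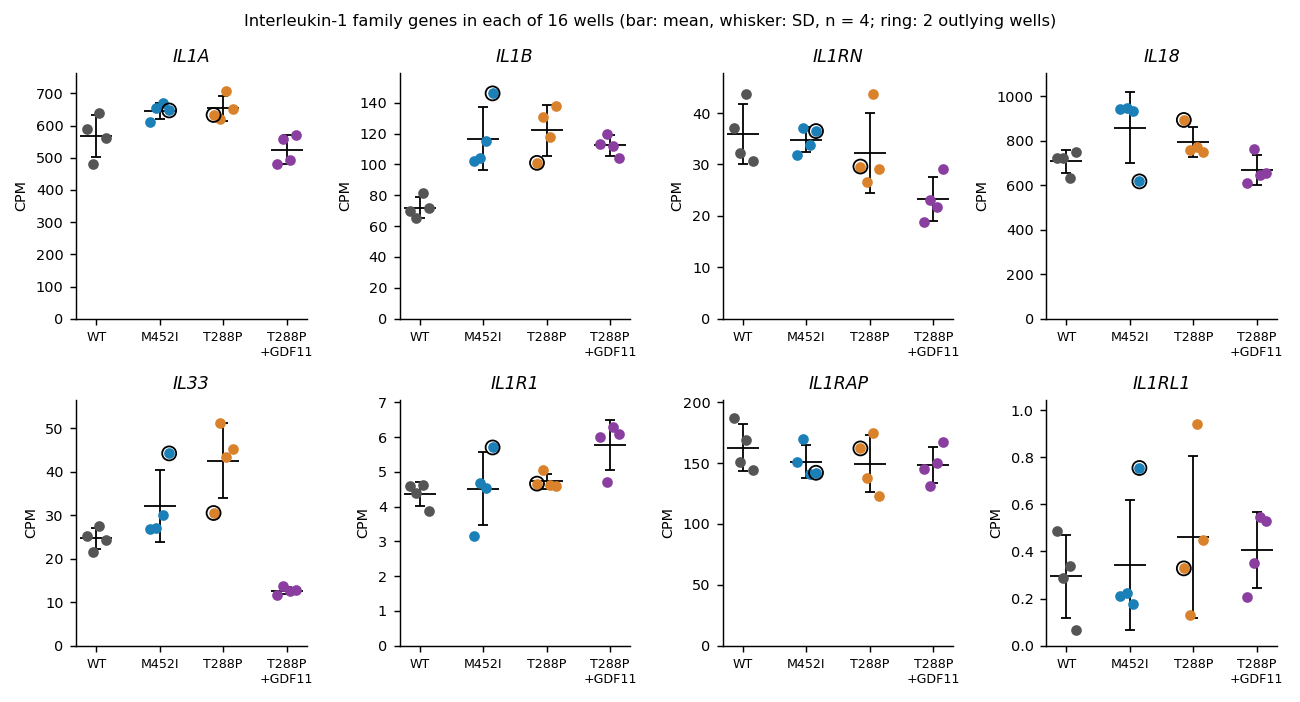
CPM of 8 interleukin-1 family genes in each of the 16 wells by condition; each point is a well, the bar is the mean, the whisker is the SD (n = 4), and rings mark M452I replicate 4 and T288P replicate 1. IL1B lay at 65.0 to 81.5 CPM in WT and at 101 to 146 CPM elsewhere, and IL33 at 11.7 to 13.8 CPM with GDF11 and at 21.5 to 51.2 CPM elsewhere.

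IL1A, whose precursor is active without cleavage and can stay in the nucleus, was among the 2 most abundant of these genes per kb in every group. Its levels were 590, 481, 638 and 562 CPM in WT and 610, 655, 669 and 647 CPM in M452I. T288P wells were at 633, 621, 708 and 651 CPM, and T288P+GDF11 wells at 480, 557, 493 and 572 CPM. The wells with GDF11 lay below every M452I and T288P well and overlapped with WT. GDF11 against T288P gave a log2 fold change of -0.31 ± 0.09 (SE), 1.24-fold lower. It was called in the fit over all genes and in 7 of the 15 alternatives (-0.36 to -0.27), and of the 8 fits that left out 1 well it was kept only without T288P+GDF11 replicate 2 or 4. Against WT the values were 0.19 ± 0.09 for M452I, 0.20 ± 0.09 for T288P and -0.11 ± 0.09 for T288P+GDF11, none called.

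IL1RN encodes the antagonist that competes with both IL-1 forms for IL1R1. It was at 37.0, 32.3, 43.8 and 30.7 CPM in WT, 31.8, 37.1, 33.8 and 36.5 in M452I, and 29.6, 26.5, 43.7 and 29.1 in T288P. With GDF11 it was at 18.9, 23.1, 21.8 and 29.1 CPM, below every WT and M452I well but overlapping with T288P. T288P+GDF11 against WT gave a log2 fold change of -0.63 ± 0.15 (SE), 1.55-fold lower, and ranged from -0.76 to -0.50 over the alternatives. Against T288P it gave -0.47 ± 0.15, not called by edgeR with all wells but called by DESeq2 with all wells. That difference ranged from -0.59 without T288P+GDF11 replicate 4 to -0.29 without T288P replicate 3. It was called without T288P replicate 2, or without T288P+GDF11 replicate 4, among the fits that left out 1 well. M452I and T288P differed from WT in IL1RN by -0.05 ± 0.15 and -0.16 ± 0.15 on the log2 scale.

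The CPM ratio of IL1B to IL1RN sets a ligand against its antagonist. It was 1.89, 2.01, 1.86 and 2.34 in WT. It was 3.20, 2.81, 3.39 and 4.00 in M452I, 3.4, 4.96, 2.71 and 4.74 in T288P, and 5.95, 5.19, 5.15 and 3.58 in T288P+GDF11. The mean ratio was 2.02 ± 0.22 (SD, n = 4) in WT, and M452I had 3.35 ± 0.498, T288P 3.95 ± 1.08 and T288P+GDF11 4.97 ± 0.998. No well of the other 3 groups overlapped with WT, and those 3 groups overlapped with each other. The IL1A to IL1B ratio went the other way, from 7.87 ± 0.429 in WT to 5.64 ± 0.827 for M452I, 5.43 ± 0.827 for T288P and 4.7 ± 0.563 with GDF11. The IL18 to IL1A ratio had group means from 1.22 to 1.33, and its wells ran from 0.952 (M452I replicate 4) to 1.54 (M452I replicate 1). These ratios are of CPM without a length correction and show only how the genes changed relative to each other.

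**Figure D4:**
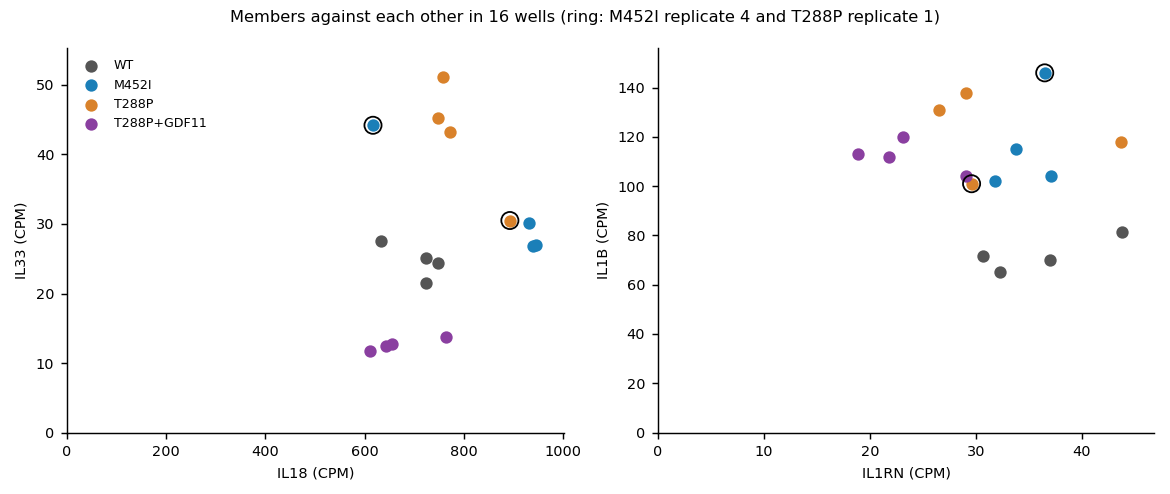
Left, CPM of IL33 against CPM of IL18, and right, CPM of IL1B against CPM of IL1RN, with 1 point for each of the 16 wells and rings around M452I replicate 4 and T288P replicate 1. The WT wells lie lowest in IL1B (65.0 to 81.5 CPM), the wells with GDF11 lie at the lower end of IL1RN (18.9 to 29.1 CPM), and M452I replicate 4 lies apart from its group in IL18 (617 CPM).

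RefSeq windows of IL1A (GRCh38.p14, chr2:112784444-112784743, minus strand) and IL1RN (chr2:113117721-113118020, plus strand) are shown beside each other because both genes were lowest with GDF11 and the antagonist opposes the ligand.
IL1A: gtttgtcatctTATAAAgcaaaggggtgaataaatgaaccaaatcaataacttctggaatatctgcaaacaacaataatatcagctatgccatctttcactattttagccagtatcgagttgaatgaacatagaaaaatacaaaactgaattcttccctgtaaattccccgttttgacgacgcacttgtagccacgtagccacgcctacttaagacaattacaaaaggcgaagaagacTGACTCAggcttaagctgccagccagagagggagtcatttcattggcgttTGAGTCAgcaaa
IL1RN: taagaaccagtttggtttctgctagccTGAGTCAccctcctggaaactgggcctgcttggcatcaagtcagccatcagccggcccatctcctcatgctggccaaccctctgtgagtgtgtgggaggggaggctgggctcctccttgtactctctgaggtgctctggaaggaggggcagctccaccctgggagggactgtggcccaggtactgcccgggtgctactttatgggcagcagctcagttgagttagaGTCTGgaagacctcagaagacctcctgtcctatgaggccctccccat
The IL1A window holds 2 matches to the AP-1 letters, with first bases 12 bases before and 38 after the start, and 1 to the TATA letters 239 bases before it. It holds no match to the SMAD letters. The IL1RN window holds 1 match to the AP-1 letters, 223 bases before the start, and 1 to the SMAD letters, 3 bases after it. The IL1RN windows not printed hold no AP-1 match. One (chr2:113127239-113127538) holds a SMAD match 200 bases before its start. Another (chr2:113127348-113127647) holds a SMAD match 63 bases before its start and TATA matches 32 and 30 bases before it. The other IL1A window (chr2:112784351-112784650) overlaps with the printed one. It holds the same 2 AP-1 matches, which lie 105 and 55 bases before its own start, and no TATA match. No marked match in the printed windows overlaps with another.

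IL18, a cytokine that epithelia make constitutively as a precursor, was at 724, 724, 633 and 748 CPM in WT. M452I wells were at 940, 946, 931 and 617 CPM, T288P wells at 893, 759, 772 and 749 CPM, and T288P+GDF11 wells at 611, 764, 644 and 656 CPM. Here 3 M452I wells stood above every well of the other groups and the fourth, M452I replicate 4, below every WT well. The log2 fold changes were 0.28 ± 0.12 (SE) for M452I and 0.17 ± 0.12 for T288P against WT, and -0.25 ± 0.12 for GDF11 against T288P, none called. Without M452I replicate 4 the M452I value was 0.41. Without both wells that stood apart, IL18 was called higher in M452I than in WT and than in T288P (log2 fold change 0.31 against T288P). In that fit 640 of all genes were called against WT and 2420 against T288P. It was added after seeing the data, so these calls are no test.

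IL1R1, the signalling receptor for both IL-1 forms, was at 4.59, 4.39, 4.63 and 3.87 CPM in WT and 3.15, 4.67, 4.54 and 5.70 CPM in M452I. It was at 4.66, 5.05, 4.63 and 4.58 CPM in T288P and 6.0, 4.70, 6.28 and 6.10 CPM with GDF11. The wells with GDF11 all lay above the WT wells, but T288P+GDF11 replicate 2 lay within the T288P range. T288P+GDF11 gave log2 fold changes of 0.40 ± 0.17 (SE) against WT and 0.29 ± 0.17 against T288P, neither called. Without T288P+GDF11 replicate 2 the value against WT was 0.51 and was called.

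IL1RAP, the accessory chain that the receptors for IL-1 and IL-33 share, overlapped between all groups. Its level was 163 ± 19.1 CPM (SD, n = 4) for WT, 151 ± 13.4 for M452I, 149 ± 23.3 for T288P and 148 ± 14.6 with GDF11. Its 5 log2 fold changes ran from -0.13 to 0.01 with a standard error of 0.11. Of the other receptors, IL1RL1, the receptor for IL-33, ranged from 0.065 to 0.939 CPM over the 16 wells, with 212 counts in all. Its log2 fold changes had standard errors of 0.65 to 0.67, and no difference was detectable at this depth. IL1R2, the decoy that binds IL-1 without signalling, had no count in 10 of the 16 wells and at most 0.382 CPM. IL36G had no count in 9 wells and at most 0.229 CPM, so its differences and those of IL1R2 were likewise not detectable.

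Some of these genes also varied together between the wells of a group. After each group's mean was removed, the deviations of IL1B and IL33 in log2(CPM + 1) had a Pearson r of 0.92 over 16 wells and of 0.74 over 14 wells without M452I replicate 4 and T288P replicate 1. Those of IL1A and IL1RN had r = 0.77 with and without them. The opposite course of IL18 and IL33 (r = -0.74) came to 0.00 over the 14 wells, so it rested on the 2 wells left out. These values describe wells that share a line and culture, and they carry no test.

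The genes whose levels were most like each member over the 16 wells were ranked by Pearson r of log2(CPM + 1) among 10205 genes. For IL1B they were TGFBI (r = 0.936), which encodes a secreted matrix protein induced by TGF-beta, MFSD2A (0.899), PDCD6 (0.89), CCT5 (0.87) and TMEM70 (0.868). TGFBI had means of 75.8 CPM for WT, 119 for M452I, 110 for T288P and 114 with GDF11, the same order of WT below the rest as IL1B. With group means removed, r for IL1B was 0.806 with TGFBI and 0.935 with PDCD6, but 0.524 with MFSD2A, 0.49 with CCT5 and 0.525 with TMEM70. For IL33 the nearest were MIR205HG (0.931) and KRT5 (0.917), with within-group r of 0.338 and 0.489. For IL1A the nearest was KRT5 (0.883). KRT5, a basal keratin, was at 1984 CPM for WT, 2268 for M452I, 2346 for T288P and 1731 with GDF11, so it shared with IL33 and IL1A a high level in T288P and a low level with GDF11. For IL1RN the nearest were CDCP1 (0.952) and NDRG1 (0.935), both lowest with GDF11, at 298 and 831 CPM. For IL18 they were PCMT1 (0.971) and DNAJC1 (0.962), and for IL1RAP they were BVES (0.922) and PICALM (0.907). These pairs share libraries and depth, and the r values are descriptions.

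The other genes of the pathway were taken from 5 lists, of which 57 genes passed the filter. These lists were also chosen with earlier results of these data known, and genes were mostly named by smallest adjusted p. The adjusted p-values printed for them therefore describe the fit and are no independent test. With either mutant allele against WT, none of the 57 was called by edgeR's quasi-likelihood test, and DESeq2 called 0 in each. At an unadjusted edgeR p under 0.05 were 5 for M452I and 9 for T288P, beside 1058 and 1425 of all 16790 genes tested. Without the 2 wells that stood apart, a fit added after seeing the data, 1 was called for M452I, CASP4, beside 640 of all genes. For T288P, 6 were called there, ICAM1, PELI1, CASP8, NFKBIZ, CXCL3 and GSDME, beside 698 of all genes (all 7 named after their values were seen). With GDF11 against T288P, 17 of the 57 were called, beside 12.9% of all genes, and with T288P+GDF11 against WT 29 were called, beside 28.9%. Those 2 comparisons share the wells with GDF11.

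Of 19 transcripts that IL-1 is known to induce, 6 rose with GDF11 against T288P and none fell, beside 12.9% of all genes called. The median log2 fold change of the 19 was 0.30, beside -0.01 over all genes tested. The 6 were the neutrophil-attracting chemokine genes CXCL1, CXCL2, CXCL3 and CXCL8, the mitochondrial superoxide dismutase gene SOD2, and BIRC3. BIRC3 encodes an inhibitor of apoptosis that acts in NF-kappaB signalling. CXCL3 rose from 13.1 ± 2.90 to 29.9 ± 3.66 CPM (SD, n = 4; log2 fold change 1.19 ± 0.17, edgeR adjusted p = 0.000269). CXCL1 rose from 45.2 ± 9.23 to 105 ± 14.6 CPM (1.22 ± 0.20, edgeR adjusted p = 0.000981). CXCL8, encoding interleukin-8, rose from 115 ± 12.6 to 191 ± 16.7 CPM (0.74 ± 0.13, edgeR adjusted p = 0.00169), and SOD2 from 214 ± 37.4 to 357 ± 64.2 CPM (0.74 ± 0.13, edgeR adjusted p = 0.00167). CXCL1, CXCL2 and CXCL3 are close in sequence and can share reads, so their separate levels are uncertain. Against WT, 8 of the 19 were higher with GDF11 and 3 were lower, beside 28.9% of all genes called. The 4 with the smallest p were CXCL3 (log2 fold change 1.57), CXCL1 (1.56), SOD2 (0.73) and CXCL2 (1.21), all higher. Between T288P and T288P+GDF11, IL1B differed by -0.12 ± 0.12 on the log2 scale, IL1A by -0.314 ± 0.094 and IL1RN by -0.469 ± 0.155. Whether the targets followed any of these genes was not tested. The targets NFKBIA (97.9 ± 10.7 and 90.2 ± 9.12 CPM) and TNFAIP3 (23.5 ± 5.17 and 21.1 ± 2.11 CPM), which encode inhibitors of NF-kappaB, were not called between T288P and T288P+GDF11 and were named after their values were seen. TNFAIP3 was among the 3 targets lower with GDF11 than in WT (log2 fold change -0.535, edgeR adjusted p = 0.0239). The others were NFKBIZ (-0.472) and IER3 (-0.438).

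Of the 16 signalling genes between receptor and NF-kappaB, 1 rose and 5 fell with GDF11 against T288P, beside 12.9% of all genes called, and the median log2 fold change was -0.19, beside -0.01 over all genes. The ubiquitin ligase gene TRAF6 fell by 0.50 on the log2 scale (SE 0.09, edgeR adjusted p = 0.00208), from 33.9 ± 2.32 to 24.1 ± 2.10 CPM. The adaptor gene MYD88 fell by 0.45 (SE 0.13, edgeR adjusted p = 0.026), from 40.2 ± 3.53 to 29.4 ± 1.15 CPM. TAB2, which encodes an adaptor of the kinase TAK1, fell by 0.34 (edgeR adjusted p = 0.014), and PELI1 and RELA also fell. The kinase gene IRAK4 rose by 0.49 (edgeR adjusted p = 0.0354). TRAF6 was called in all 15 alternatives, TAB2 in 13, MYD88 in 9 and IRAK4 in 8. MYD88 was lost without T288P replicate 1 or 3 or any 1 well with GDF11, IRAK4 without any 1 of replicates 1 to 3 of either group, and TAB2 without T288P replicate 3. Against WT, 8 of the 16 fell and 1 rose, beside 28.9% of all genes called, with PELI1, encoding an ubiquitin ligase, at -0.99 ± 0.19 on the log2 scale (edgeR adjusted p = 0.00088).

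Of the 17 genes of maturation and release, 1 rose and 3 fell with GDF11 against T288P, beside 12.9% of all genes called. Their median log2 fold change was 0.31, beside the same -0.01 over all genes. That median was the value of GSDMD, whose SE was 0.529. CTSC, encoding the lysosomal protease cathepsin C, rose from 71.1 ± 8.77 to 162 ± 19.3 CPM (log2 fold change 1.19 ± 0.13, edgeR adjusted p = 3.66e-05). The calpain gene CAPN1, whose family cleaves the IL-1 alpha precursor, fell by 0.46 on the log2 scale (edgeR adjusted p = 0.0063), and CASP4, an inflammatory caspase gene, fell by 0.41 (edgeR adjusted p = 0.0054). CAPN2 fell by 0.26 (edgeR adjusted p = 0.0339), a call kept in 5 of 15 alternatives and in none of the 8 that left out 1 well. CASP1, whose product cleaves the IL-1 beta and IL-18 precursors, was at 6.16 ± 0.398 CPM in T288P and 5.42 ± 1.47 with GDF11 and was not called. The inflammasome genes NLRP3 and AIM2 had means of at most 0.0914 CPM in every group and did not pass the filter, whereas NLRP1 was at 7.15 ± 1.44 CPM in T288P and 9.76 ± 0.59 with GDF11 and was not called between them (CASP1, NLRP1, NLRP3 and AIM2 were named after their values were seen). Against WT, 5 of the 17 were higher with GDF11 and 3 were lower, beside 28.9% of all genes called. Among the higher was GSDME, encoding a pore-forming gasdermin, at 0.71 ± 0.13 on the log2 scale (edgeR adjusted p = 0.000581).

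Of the other ligands and antagonists, 2 passed the filter, IL36RN and IL18BP, and neither was called in any comparison. Of the other receptors 3 passed. IL18R1, the IL-18 receptor, was higher with GDF11 than in WT (0.822 ± 0.303 against 0.308 ± 0.0718 CPM; log2 fold change 1.40 ± 0.43, edgeR adjusted p = 0.0208), a call lost without WT replicate 4 or without T288P+GDF11 replicate 4. IL1RAPL2 was called higher with GDF11 than in T288P (0.295 ± 0.106 against 0.0422 ± 0.0297 CPM; edgeR adjusted p = 0.0366). That call rests on 6 counts in the T288P wells and was lost by DESeq2 and when any 1 of the 8 wells was left out. The IL-18 accessory receptor IL18RAP and the IL-36 receptor IL1RL2 had means of at most 0.0647 CPM and were not tested.

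**Figure D5:**
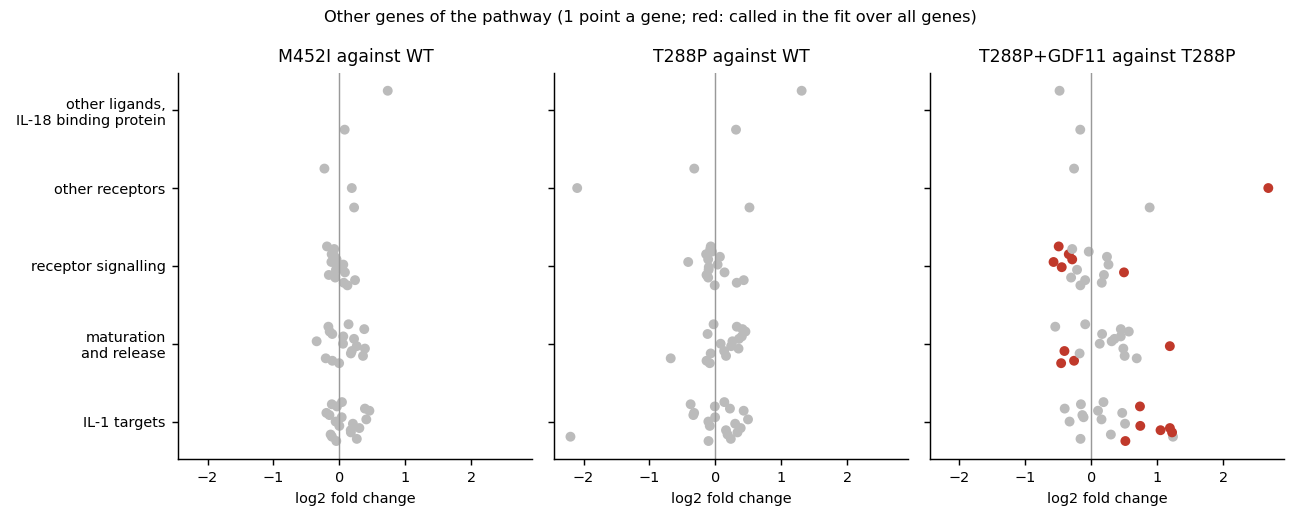
Log2 fold change of the 57 genes of 5 other pathway lists (1 point for each gene, grouped by list) in 3 comparisons; red points were called by edgeR in the fit over all genes. No point is red for either allele against WT, and with GDF11 against T288P the 6 red points among the IL-1 targets all lie above 0 while 5 of 6 among the signalling genes lie below.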

How the data were processed

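RNA was sequenced from 16 wells, 4 in each of 4 conditions. The authors deposited a table of whole-number counts per gene and library, not normalized. The submitters' processing notes name StringTie 2.2.1, HISAT2 without a version, and the GRCh38 build. How reads were counted, with which annotation and strand setting, is not given in the sources used here. The ratio of genes with 1 count to genes with 2 counts was 0.974 to 1.1 per library, so mates of a pair may have been counted separately. Reads of genes that overlap on opposite strands cannot be told apart here. IL1R1 overlaps with IL1R1-AS1, which did not pass the filter.

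Tests used edgeR 4.0.16 in R 4.3.3 with TMM factors, filterByExpr (minimum count 10) and the robust quasi-likelihood F test in 1 model of all 16 libraries. P-values were adjusted by Benjamini-Hochberg over 16790 genes. Standard errors were obtained as the size of the log2 fold change over the root of F. The fit was tested on simulated data. Alternatives were DESeq2 1.42.0, RLE factors, no filter, a stricter filter (50 counts in 4 libraries), only the groups compared, a replicate block, and leaving out each well. A fit without M452I replicate 4 and T288P replicate 1 was added after seeing the data. Coordinates and exon lengths come from GENCODE 29, and sequences from RefSeq (GRCh38.p14), which held windows for 9 of the 10 genes.

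The 10 genes and the pathway lists were chosen with earlier results of these data known. Named were the 10 genes, up to 4 called genes per other list and comparison by smallest adjusted p, the 2 genes (5 for IL1B) most correlated with each of the 10 that had a mean of at least 5 CPM (candidates with a mean of at least 3 CPM and log2(CPM + 1) values), and PCSK5 and GDF11. IL1R1 falls just below that mean of 5. Other named genes were named after their values were seen, and 1 gene that the rule takes is not reported here. All value columns were mapped to samples.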

Additional observations from a re-analysis of the deposited data

Results flagged for a closer look

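In each group of 4 wells, the well at either end was compared with its nearest neighbour, and it was marked where that gap, as a share of the group's range, exceeded Dixon's critical value for 4 samples. Of 108 groups examined over the named genes, 10 were marked. The critical value marks about 1 in 20 groups of independent, normal values. Here the genes share wells, and a group with only 1 well above 0 is always marked, so the count cannot be set against that rate. M452I replicate 4 and T288P replicate 1 account for 5 of the marks.

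IL18 was at 617 CPM in M452I replicate 4, where the other 3 M452I wells were at 931 to 946. In the same well the IL-33 receptor gene IL1RL1 was at 0.754 CPM against 0.175 to 0.222, and the caspase gene CASP4 at 88.4 CPM against 113 to 118. IL18 was at 893 CPM in T288P replicate 1 against 749 to 772, and the chemokine gene CXCL1 was at 31.5 CPM there against 48.0 to 51. The gasdermin gene GSDME was at 18.2 CPM in WT replicate 3 against 13.8 to 14.4, and the calpain gene CAPN2 at 761 CPM in T288P+GDF11 replicate 1 against 808 to 814. Where all other wells of a group were at 0, single wells with few counts were marked: IL36G at 0.229 CPM in WT replicate 1, and IL1R2 at 0.382 CPM in WT replicate 3 and at 0.0658 CPM in M452I replicate 3.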

How the results depend on the processing

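Of 594 recomputed log2 fold changes of the 8 interleukin-1 family genes, 575 stayed within 1 SD between wells, 19 moved further and 0 of the called ones reversed. Of 26 named results of the other lists, 20 were called in every alternative. For M452I against WT, 4 genes were called: 30 by DESeq2, 0 with only the 2 groups and 640 without both outlying wells. Called family genes there went from 1 to 0 with RLE factors, with the stricter filter, with only the 2 groups and with the replicate block, and to 2 without both wells, where 1 gene of the other lists was called. For T288P against WT, 7 genes were called: 80 by DESeq2, 11 with no filter, 1 with the block and 698 without both wells. Called family genes there were 2 by DESeq2, 0 with the block and 2 without both wells, where 6 genes of the other lists were called. For GDF11 against T288P, 2174 genes were called and 1391 with no filter, where 1 family gene and 11 genes of the other lists were called. For M452I against T288P, 1 gene was called: 6 by DESeq2, 0 with only the 2 groups, and 2420 without both wells, with 3 family genes and 7 of the other lists. Leaving out 1 well gave 1 to 9 genes and 0 to 1 family gene for M452I against WT, and 1 to 16 genes and 0 to 2 family genes for T288P against WT. The most calls came without M452I replicate 4 and without T288P replicate 1. For GDF11 against T288P it gave 1028 to 1912 genes, 1 to 3 family genes and 10 to 15 of the other lists, with 1028 genes without T288P replicate 1 and 1195 without T288P+GDF11 replicate 1 or 3. The causes were not tested.

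With the replicate number as a block, GDF11 against T288P called 1836 genes and 1 family gene, IL33. Numbers pair nothing in the labels: over 24 pairs of same-numbered wells the correlation of deviations ran from -0.197 to 0.174, and 4 exceeded 0.1. Depth limits IL1RL1, IL1R2 and IL36G, each with at most 212 counts in all.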
